A study of Homo sapiens with 14 samples.

Results

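The 31 genes described here are established targets of the transcription factor p53, from the cell cycle inhibitor CDKN1A to the apoptosis genes BBC3, BAX and FAS. They were chosen by name, and all 31 were among the 57756 genes of the deposited tables. All 31 also had a mean of at least 1 FPKM (fragments scaled by transcript length and by the mapped fragments of the library) over the 14 libraries and were tested with the other genes, 14233 in all. The study sequenced RNA from A549, an established human lung carcinoma line, to ask how U2AF1 and its cancer mutation S34F change splicing. U2AF1 is the small subunit of the factor that recognises the 3′ end of introns. There were 7 groups of 2 libraries. Untreated A549 cells formed the first group. Cells given an empty vector and a control siRNA are called the control siRNA group, and cells given an empty vector after U2AF1 knockdown are called the knockdown group. In the other 4 groups, U2AF1 was knocked down and cells were infected with virus carrying U2AF1 isoform v1 or v3, as wild type or as S34F. The labels do not tell whether both replicates of a group were separate cultures, and p-values then reflect only the scatter of these libraries, which may be technical in origin.

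In unstressed cells p53 is kept low because its own target MDM2, a ubiquitin ligase, marks it for destruction. DNA damage and other stresses release p53, which then binds a response element near its target genes and activates transcription. The products stop the cell cycle, repair DNA, trigger apoptosis, adjust metabolism or feed back on p53. A549 cells are known to lack CDKN2A, whose product ARF restrains MDM2, and in these libraries it reached at most 0.25 FPKM.

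The p53 response element consists of 2 adjacent 10-base elements. It was looked for by name in the 250 bases upstream of RefSeq transcription starts (GRCh38.p14), with 0 or 1 base between the elements and with the core C and G of each element kept. The element reads alike on both strands. Among the members, 25 had at least 1 promoter in the RefSeq table, with 37 windows between them, and 6 had none. An element with at most 2 mismatches was found in 4 of these 37 windows, belonging to MDM2, FAS and AEN, against 0.441% of all 35116 windows. At most 3 mismatches were found in 7 windows of 6 members, which adds SESN1, RPS27L and FDXR, against 1.97% of all windows. A match is a description of the letters and not evidence of binding. Those of MDM2, FAS and SESN1 are shown because the genes differ in how they moved below, with the element in capitals. Each of these genes has several RefSeq starts, and the distance given is to a downstream one. Windows of their upstream starts had at least 6 mismatches for MDM2, 8 for FAS and 5 for SESN1.
MDM2, chr12:68808893-68808972, plus strand, element centred 84 bases before the start, 2 mismatches: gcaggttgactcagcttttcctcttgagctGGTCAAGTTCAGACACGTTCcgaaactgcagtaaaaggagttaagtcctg
FAS, chr10:88991279-88991358, plus strand, element centred 112 bases before the start, 2 mismatches: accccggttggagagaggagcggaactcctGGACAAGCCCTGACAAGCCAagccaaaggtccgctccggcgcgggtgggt
SESN1, chr6:109008989-109009067, minus strand, element centred 39 bases before the start, 3 mismatches: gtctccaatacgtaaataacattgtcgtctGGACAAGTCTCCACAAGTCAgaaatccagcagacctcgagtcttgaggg

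U2AF1 itself checked the labels: it stood at 128 and 143 FPKM in untreated cells, 117 and 119 with control siRNA, 16.2 and 28.9 in the knockdown and between 2114 and 3852 with the constructs. The shallowest library was v1 S34F replicate 2, at a relative depth of 0.802, and the deepest knockdown replicate 2, at 1.20. Replicates were correlated across genes at 0.965 to 0.982. A single isoform took 33.1% of the FPKM of v1 S34F replicate 2 and another 8.81% of knockdown replicate 1, against at most 1.06% elsewhere. The 13 mitochondrially encoded genes summed to 17287 FPKM in control siRNA replicate 2, the lowest of all libraries, and to between 35959 and 63249 in the others. Epithelial keratin and adhesion genes summed to between 2345 and 3331 FPKM, while alveolar and airway markers stayed at or under 1.17 in sum. Of 6 leukocyte and endothelial markers in the tables, 5 had a mean under 1 FPKM, PTPRC reaching at most 0.52. The sixth, CD68, a lysosomal protein of macrophages and other cells, carried the list, whose sum was 14.5 to 30.1 FPKM without a construct, 24.2 to 39.5 with wild type and 39.5 to 60.3 with S34F. CD68 was called higher with S34F against the knockdown (limma log2 0.98, SE 0.25, adjusted p = 0.037), and its part in the members' change there was not tested.

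Across the 7 treatments the targets formed a staircase. The untreated group was the lowest of the 7 for 28 of the 31 members, and the knockdown group was the lowest for DDB2, TP53INP1 and TNFRSF10A. The highest group was always one with a U2AF1 construct: v1 S34F for 11 members, wild-type v3 for 9, v3 S34F for 8 and wild-type v1 for 3. Relative to untreated cells, the median member stood at 1.57 times with control siRNA, 1.51 times in the knockdown, 2.06 and 2.16 times with wild-type v1 and v3, and 2.42 and 2.31 times with v1 and v3 S34F. Between the highest and the lowest library, levels differed 1.96-fold for POLH, a translesion DNA polymerase, and 8.87-fold for GADD45A, a growth arrest gene. In bulk RNA, fewer cells expressing a gene and less of its RNA per cell cannot be told apart.

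**Figure D1:**
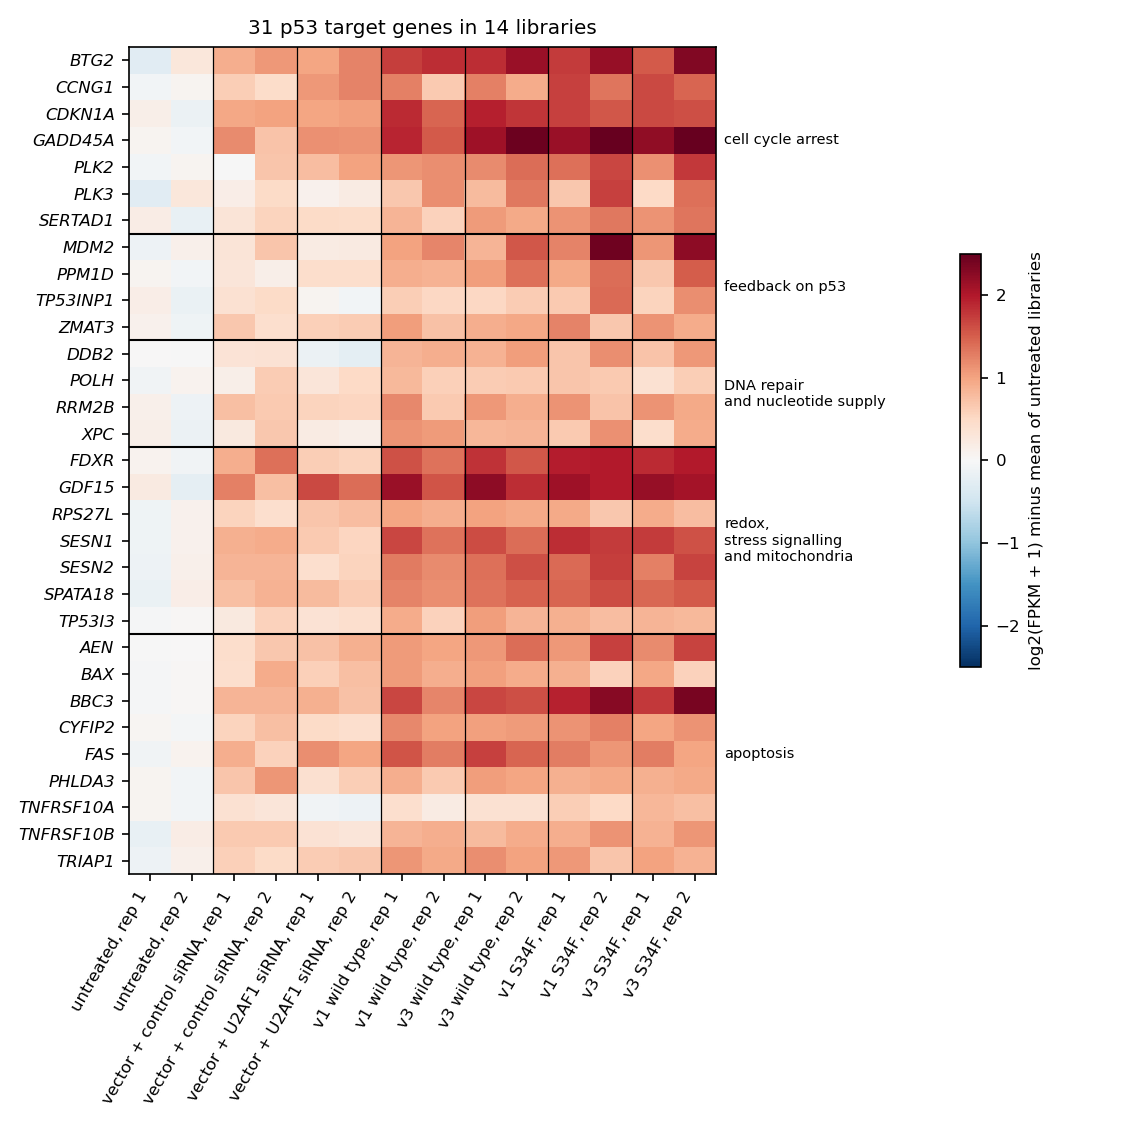
Level of each of the 31 members (rows, ordered by role) in the 14 libraries (columns) as log2(FPKM + 1) minus the mean of the untreated libraries, on a colour scale from blue (lower) to red (higher). Libraries with a U2AF1 construct are the reddest for most members, and GADD45A reaches 6.63 times the untreated mean in the v3 S34F group.

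Among the cell cycle genes, CDKN1A (ENSG00000124762, chromosome 6, 36644305 to 36655116, GRCh37 as for the other genes) encodes p21, which blocks cyclin-dependent kinases. It stood at 52.9 and 42.6 FPKM in untreated cells, 94.0 and 97.0 with control siRNA and 95.2 and 98 in the knockdown. With wild-type v1 it stood at 176 and 133 FPKM, with wild-type v3 at 186 and 165, with v1 S34F at 158 and 141 and with v3 S34F at 151 and 147. The 3 levels, untreated, siRNA with empty vector, and siRNA with construct, did not overlap. GADD45A (chromosome 1, 68150744 to 68154021) stood at 19.5 and 17.5 FPKM in untreated cells, 43.3 and 30.8 with control siRNA, and 41.9 and 41.3 in the knockdown. It reached 71.5 and 55.6 FPKM with wild-type v1, 83.8 and 105 with v3 wild type, 86.4 and 133 with v1 S34F, and 89.9 and 156 with v3 S34F. Every construct library lay above every library without one, and the S34F replicates 2 were the highest.

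BTG2, an antiproliferative regulator of mRNA decay, stood at 5.17 and 8.12 FPKM in untreated cells, 13 and 14.8 with control siRNA, 13.9 and 16.7 in the knockdown, 23.8 and 26.1 with wild-type v1, 26.1 and 32.5 with v3 wild type, 24.2 and 32.9 with v1 S34F, and 20.7 and 36.2 with v3 S34F. Construct libraries again lay above all others. SERTAD1, a cyclin-dependent kinase 4 binding protein, stood at 10.3 and 7.84 FPKM in untreated cells, 11.5 and 13.7 with control siRNA, 12.9 and 12.8 in the knockdown, 17.1 and 13.9 with wild-type v1, 19.8 and 18.3 with v3 wild type, 20.9 and 24.1 with v1 S34F, and 20.7 and 24.4 with v3 S34F. The 4 S34F libraries were its 4 highest. CCNG1, cyclin G1, stood at 52.4 and 57.5 FPKM in untreated cells, 84.2 and 75.6 with control siRNA, 118 and 132 in the knockdown, 132 and 87.0 with wild-type v1, 133 and 105 with v3 wild type, 182 and 140.4 with v1 S34F, and 174 and 152 with v3 S34F. Its knockdown libraries lay above the control siRNA ones, and wild-type libraries overlapped them, 2 lying below both. The polo-like kinases PLK2 and PLK3 ranged from 113 to 407 and from 4.50 to 20.8 FPKM.

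In the feedback group, MDM2 (ENSG00000135679, chromosome 12, 69201956 to 69239214) stood at 53.3 and 64.4 FPKM in untreated cells, 73.0 and 95 with control siRNA and 68.1 and 68.7 in the knockdown. With wild-type v1 it stood at 119 and 139 FPKM, with wild-type v3 at 106 and 175, with v1 S34F at 139 and 322, and with v3 S34F at 126 and 278. The 2 highest values were the S34F replicates 2, and the S34F replicates 1 lay within the range of the wild-type libraries. TP53INP1, which promotes p53 phosphorylation and autophagy, stood at 3.98 and 2.91 FPKM in untreated cells, 4.73 and 5.11 with control siRNA, 3.65 and 3.22 in the knockdown, 5.72 and 5.29 with wild-type v1, 5.29 and 5.84 with v3 wild type, 5.91 and 10.8 with v1 S34F, and 5.48 and 8.89 with v3 S34F. It shared the split of MDM2 between the S34F replicates. The phosphatase PPM1D and the RNA-binding protein ZMAT3 ranged from 10.1 to 31.9 and from 3.45 to 10.3 FPKM.

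Among the repair genes, DDB2 (chromosome 11, 47236493 to 47260767), which recognises ultraviolet damage, stood at 51.3 and 50.3 FPKM in untreated cells, 64.4 and 65.5 with control siRNA and 46.1 and 42.9 in the knockdown. It stood at 92.9 and 95.7 FPKM with wild-type v1, 93.3 and 105 with v3 wild type, 83.2 and 115 with v1 S34F, and 83.9 and 109 with v3 S34F. The knockdown libraries were below all others and the construct libraries above all others. XPC, the damage sensor of nucleotide excision repair, ranged from 34.4 to 85.8 FPKM, POLH from 9.54 to 18.7 and the ribonucleotide reductase subunit RRM2B from 20.1 to 52.0.

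In the group of redox, stress signalling and mitochondrial genes, FDXR (chromosome 17, 72858619 to 72869156), a mitochondrial reductase, stood at 48.9 and 43.1 FPKM in untreated cells, 87.4 and 121 with control siRNA and 71.0 and 68.1 in the knockdown. It stood at 141 and 119 FPKM with wild-type v1, 164 and 137 with v3 wild type, 183 and 185 with v1 S34F, and 171 and 184 with v3 S34F. All 4 S34F libraries lay above all 4 wild-type ones. SESN1 (chromosome 6, 109307640 to 109416022), a sestrin that restrains mTORC1, stood at 5.08 and 6.11 FPKM in untreated cells, 11.1 and 11.5 with control siRNA, 9.41 and 8.61 in the knockdown, 19.9 and 15.8 with wild-type v1, 19.4 and 16.4 with v3 wild type, 22.5 and 21 with v1 S34F, and 21 and 18.8 with v3 S34F. Its relative SESN2 stood at 3.38 and 4.19 FPKM in untreated cells, 7.59 and 7.60 with control siRNA, 5.35 and 5.98 in the knockdown, 10.7 and 9.84 with wild-type v1, 11.4 and 13.6 with v3 wild type, 11.8 and 14.7 with v1 S34F, and 10.5 and 14.3 with v3 S34F. Both sestrins were lowest without treatment, and their knockdown libraries lay below the control siRNA libraries.

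TP53I3, a quinone oxidoreductase, stood at 118 and 122 FPKM in untreated cells, 142 and 179 with control siRNA, 155 and 161 in the knockdown, 230.1 and 179 with wild-type v1, 248 and 218 with v3 wild type, 225 and 207 with v1 S34F, and 217 and 213 with v3 S34F. SPATA18, which takes part in mitochondrial quality control, stood at 1.60 and 2.26 FPKM in untreated cells, 3.93 and 4.34 with control siRNA, 4.06 and 3.54 in the knockdown, 5.93 and 5.48 with wild-type v1, 6.52 and 7.05 with v3 wild type, 6.95 and 7.98 with v1 S34F, and 6.88 and 7.44 with v3 S34F. For both genes the construct libraries lay above the knockdown ones. GDF15, a secreted stress cytokine, stood at 27.4 and 19.9 FPKM in untreated cells, 57.0 and 40.2 with control siRNA, 75.8 and 63.2 in the knockdown, 108 and 71.0 with wild-type v1, 113 and 86.4 with v3 wild type, 105 and 94.9 with v1 S34F, and 109 and 102 with v3 S34F. Its knockdown libraries lay above the control siRNA ones, 1 wild-type library (71.0 FPKM) lay between them, and replicate 1 was the higher in all 7 groups. RPS27L, a ribosomal protein paralog, ranged from 189.6 to 411 FPKM.

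Among the apoptosis genes, BBC3 (chromosome 19, 47724081 to 47736023) encodes PUMA, a BH3-only activator of BAX. It stood at 6.53 and 6.77 FPKM in untreated cells, 12.8 and 12.7 with control siRNA, 13.1 and 11.6 in the knockdown, 23.5 and 16.9 with wild-type v1, 23.4 and 22.3 with v3 wild type, 28.0 and 36.1 with v1 S34F, and 25.1 and 38.4 with v3 S34F. The 4 S34F libraries were its 4 highest, and the S34F replicates 2 led them. The TRAIL death receptor TNFRSF10A stood at 16.6 and 15.2 FPKM in untreated cells, 20.9 and 19.9 with control siRNA, 14.8 and 14.3 in the knockdown, 21.5 and 18.4 with wild-type v1, 21.1 and 21 with v3 wild type, 24.9 and 22.8 with v1 S34F, and 29 and 27.3 with v3 S34F. Its knockdown libraries were the lowest and its S34F libraries the highest. The other TRAIL death receptor, TNFRSF10B, stood at 72.0 and 93.9 FPKM in untreated cells, 129.5 and 130.3 with control siRNA, 106 and 101 in the knockdown, 149 and 156 with wild-type v1, 144 and 158 with v3 wild type, 154 and 181 with v1 S34F, and 150.5 and 177 with v3 S34F. Construct libraries were above all others. CYFIP2, an actin regulator of the WAVE complex, stood at 25.4 and 23.9 FPKM in untreated cells, 36.9 and 42.0 with control siRNA, 34.6 and 33.1 in the knockdown, 58.2 and 50.6 with wild-type v1, 51.4 and 52.2 with v3 wild type, 55.2 and 60.6 with v1 S34F, and 49.5 and 55.1 with v3 S34F. It formed the same 3 steps as CDKN1A.

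The death receptor FAS (chromosome 10, 90750414 to 90775542) stood at 10.7 and 12.1 FPKM in untreated cells, 22.2 and 17.6 with control siRNA, 26.7 and 23.7 in the knockdown, 35.7 and 29.2 with wild-type v1, 39.6 and 32.8 with v3 wild type, 29.1 and 25.5 with v1 S34F, and 28.9 and 23.4 with v3 S34F. Its wild-type libraries were the highest, and its S34F libraries overlapped those of the knockdown. BAX, which permeabilises mitochondria, ranged from 168 to 358 FPKM. PHLDA3, an inhibitor of AKT, ranged from 43.6 to 99.5, the nuclease AEN from 37.1 to 124, and TRIAP1, a mitochondrial lipid transfer factor, from 44.5 to 109.7.

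**Figure D2:**
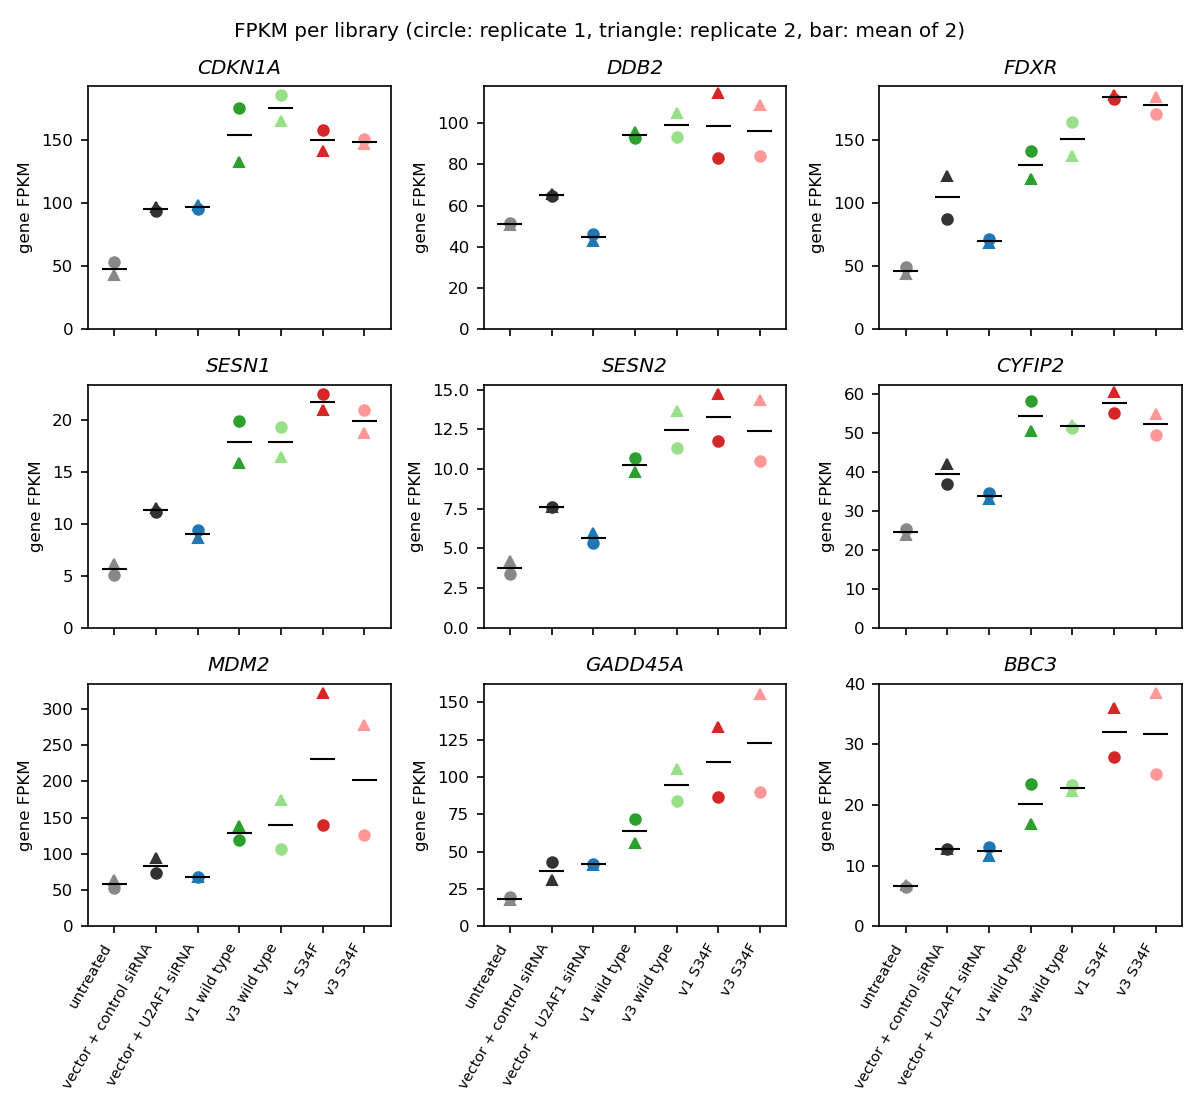
FPKM of 9 members in each library, by treatment (circles are replicates 1, triangles replicates 2 and bars the mean of both; each axis starts at 0). CDKN1A shows 3 steps, with constructs between 133 and 186 FPKM, while MDM2 splits between S34F replicates 1 (139 and 126) and 2 (322 and 278).

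The control siRNA group was compared with untreated cells to measure what the procedure itself does to the targets. All 31 members lay above untreated cells, where 45.9% of all genes did. Their median log2 change was 0.56, against -0.02 over all genes, and ranged from 0.22 for PPM1D to 1.15 for FDXR. The groups did not overlap for 29 members, the exceptions being PLK2 and PLK3, and 12.8% of all genes were higher without overlap. No member passed limma's adjusted test, nor did any gene of the table (0%), in either direction. At an unadjusted p under 0.05 there were 26 members higher and 0 lower, against 2.52% of genes higher and 2.61% lower. The leading members were FDXR (log2 1.15, SE 0.16, adjusted p = 0.207), GDF15 (1.00, SE 0.23, adjusted p = 0.733), CDKN1A (0.99, SE 0.15, adjusted p = 0.207) and BTG2 (0.99, SE 0.26, adjusted p = 0.747). With the replicate number as a block, CDKN1A and GDF15 were called (adjusted p = 0.046 for each), the only genes of all 14233 called higher (0.0141%). Without control siRNA replicate 1 the members' median was 0.67, with 31 of 31 above untreated cells. The mitochondrially encoded genes lay below untreated cells for 13 of 13 (median -0.92), with control siRNA replicate 2 the lowest library, and their part in the result was not tested. Without that library the members' median was 0.60 and 30 of 31 lay above untreated cells.

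The knockdown was compared with the control siRNA group, which also served as the treated side of the previous comparison. As a set the targets stood near all genes here: 14 lay above and 17 below the control (48.3% of all genes lay above), with a median of -0.02 against -0.01 over all genes. The members with the largest changes were CCNG1 (log2 0.63, SE 0.20, adjusted p = 0.116) and PLK2 (0.55, SE 0.23, adjusted p = 0.234) above the control, and FDXR (-0.56, SE 0.16, adjusted p = 0.084) and DDB2 (-0.54, SE 0.16, adjusted p = 0.099) below it. No member was called by limma, against 0.787% of genes called higher and 2.06% called lower. At an unadjusted p under 0.05 there were 3 members higher and 5 lower (8.12% and 10.8% of genes). With the replicate block, GDF15, CCNG1 and PLK2 were called higher (adjusted p = 0.024, 0.030 and 0.035; 4.69% of genes), and TNFRSF10A, DDB2 and FDXR lower (adjusted p = 0.015, 0.028 and 0.038; 7.12% of genes). CDKN1A (log2 0.02) and MDM2 (-0.28, adjusted p = 0.778) were not called with or without the block. The mitochondrially encoded genes lay above the control for 13 of 13 (median 0.64), and their part in these values was not tested.

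Wild-type re-expression, the mean of the v1 and v3 constructs against the knockdown group, asks what returning U2AF1 in excess does. In this comparison 6 of the 31 members rose and 0 fell, against 1.04% of all genes called higher and 0.386% called lower. DDB2 rose from 44.5 ± 2.26 FPKM (SD, n = 2) to 96.8 ± 5.75 (n = 4), a log2 change of 1.10 (SE 0.14, adjusted p = 0.0070). FDXR rose from 69.5 ± 2.09 to 140.4 ± 18.5 FPKM (log2 0.99, SE 0.14, adjusted p = 0.010). SESN1 rose by log2 0.91 (SE 0.13, adjusted p = 0.013) and SESN2 by 0.89 (SE 0.16, adjusted p = 0.029), so that both sestrins about doubled to 1.98 and 2.01 times. CDKN1A rose by log2 0.75 (SE 0.13, adjusted p = 0.023) and CYFIP2 by 0.63 (SE 0.10, adjusted p = 0.020).

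Beyond those calls, 30 of 31 members lay above the knockdown (53.5% of all genes), with a median of 0.55 against 0.02 over all genes, and 29 did so without overlap of the libraries (18.1% of genes). CCNG1 was the exception at -0.15 (SE 0.17, adjusted p = 0.729). The largest uncalled changes were those of MDM2 (0.94, SE 0.35, adjusted p = 0.228), GADD45A (0.87, SE 0.24, adjusted p = 0.109), PLK3 (0.84, SE 0.32, adjusted p = 0.242) and XPC (0.79, SE 0.18, adjusted p = 0.058). With the replicate block 19 members were called higher (4.97% of genes), MDM2 (adjusted p = 0.030) and GADD45A (adjusted p = 0.045) among them. The calls rested on both knockdown libraries. Leaving out either leaves 1 whose spread is assumed to be like that of the other groups, and calls fell away among members and among all genes. The members' median was then 0.58 without replicate 1 and 0.50 without replicate 2, with 30 of 31 above the knockdown in each case. Fewer members and fewer of all genes were also called without any 1 wild-type library, where the members' median was 0.52 to 0.58. CDKN1A lost its call without both S34F replicates 2, and SESN2 lost its call with no filter on low values.

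Set against the control siRNA group instead, the same wild-type libraries had 30 of 31 members above it (52% of genes), with a median of 0.51. The mitochondrially encoded genes lay above the control for 13 of 13 here too (median 0.82), and without control siRNA replicate 2 the members' median was 0.58, again with 30 of 31 above. One member was called, CDKN1A (log2 0.77, SE 0.13, adjusted p = 0.035), against 0.133% of genes called higher and 0.302% lower, and 14 were called with the replicate block (1.74% of genes). The call of CDKN1A was lost with no filter on low values and without both S34F replicates 2. With 1 library left out it held only where that was an untreated library, v1 S34F replicate 1 or wild-type v1 replicate 2 (adjusted p = 0.029 to 0.231 over the 14 libraries). PHLDA3 (-0.01) and TNFRSF10A (0.01) stood level with the control siRNA group, having been below it in the knockdown. Changes past the control were instead seen in GADD45A (1.06, SE 0.24, adjusted p = 0.090) and GDF15 (0.94, SE 0.20, adjusted p = 0.079).

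S34F re-expression, the mean of both mutant constructs against the same knockdown libraries, had 16 of the 31 members higher and 0 lower, where 5.08% of all genes were called higher and 3.86% lower. MDM2 rose from 68.4 ± 0.41 FPKM (SD, n = 2) to 216 ± 98.1 (n = 4), a log2 change of 1.53 (SE 0.35, adjusted p = 0.025). GADD45A rose by log2 1.42 (SE 0.24, adjusted p = 0.0080), FDXR by 1.36 (SE 0.14, adjusted p = 0.00093) and BBC3 by 1.28 (SE 0.18, adjusted p = 0.0040). SESN1 rose by log2 1.12 (SE 0.13, adjusted p = 0.0023), DDB2 by 1.10 (SE 0.14, adjusted p = 0.0025), SESN2 by 1.04 (SE 0.16, adjusted p = 0.0057) and TP53INP1 by 0.94 (SE 0.23, adjusted p = 0.031). The remaining 8 called members were BTG2, TNFRSF10A, SPATA18, SERTAD1, CYFIP2, TNFRSF10B, CDKN1A and TP53I3, with log2 changes from 0.44 for TP53I3 to 0.82 for BTG2.

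By role, the calls covered 4 of 7 cell cycle genes, 2 of 4 feedback genes, 1 of 4 repair genes, 5 of 7 redox, stress signalling and mitochondrial genes and 4 of 9 apoptosis genes. All 31 members lay above the knockdown (55% of genes), with a median of 0.67 against 0.04 over all genes. The libraries did not overlap for 27 (22.3% of genes). The 4 that overlapped were also those with the smallest changes, namely FAS (0.08), BAX (0.08), RPS27L (0.09) and POLH (0.19). The largest uncalled changes were those of PLK3 (0.91, SE 0.32, adjusted p = 0.104), PPM1D (0.70, SE 0.21, adjusted p = 0.063) and XPC (0.61, SE 0.18, adjusted p = 0.056). With the replicate block 24 members were called (13.6% of genes), these 3 among them. Leaving out both S34F replicates 2 brought the members' median to 0.57, with 31 of 31 still above the knockdown, and MDM2 to log2 0.95. Calls fell among members and among all genes, and MDM2, TP53INP1, BTG2 and CDKN1A were then among those not called. Without either knockdown library calls fell too, among members and among all genes. The median was then 0.69 without replicate 2 (30 of 31 above) and 0.70 without replicate 1 (31 of 31 above).

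**Figure D3:**
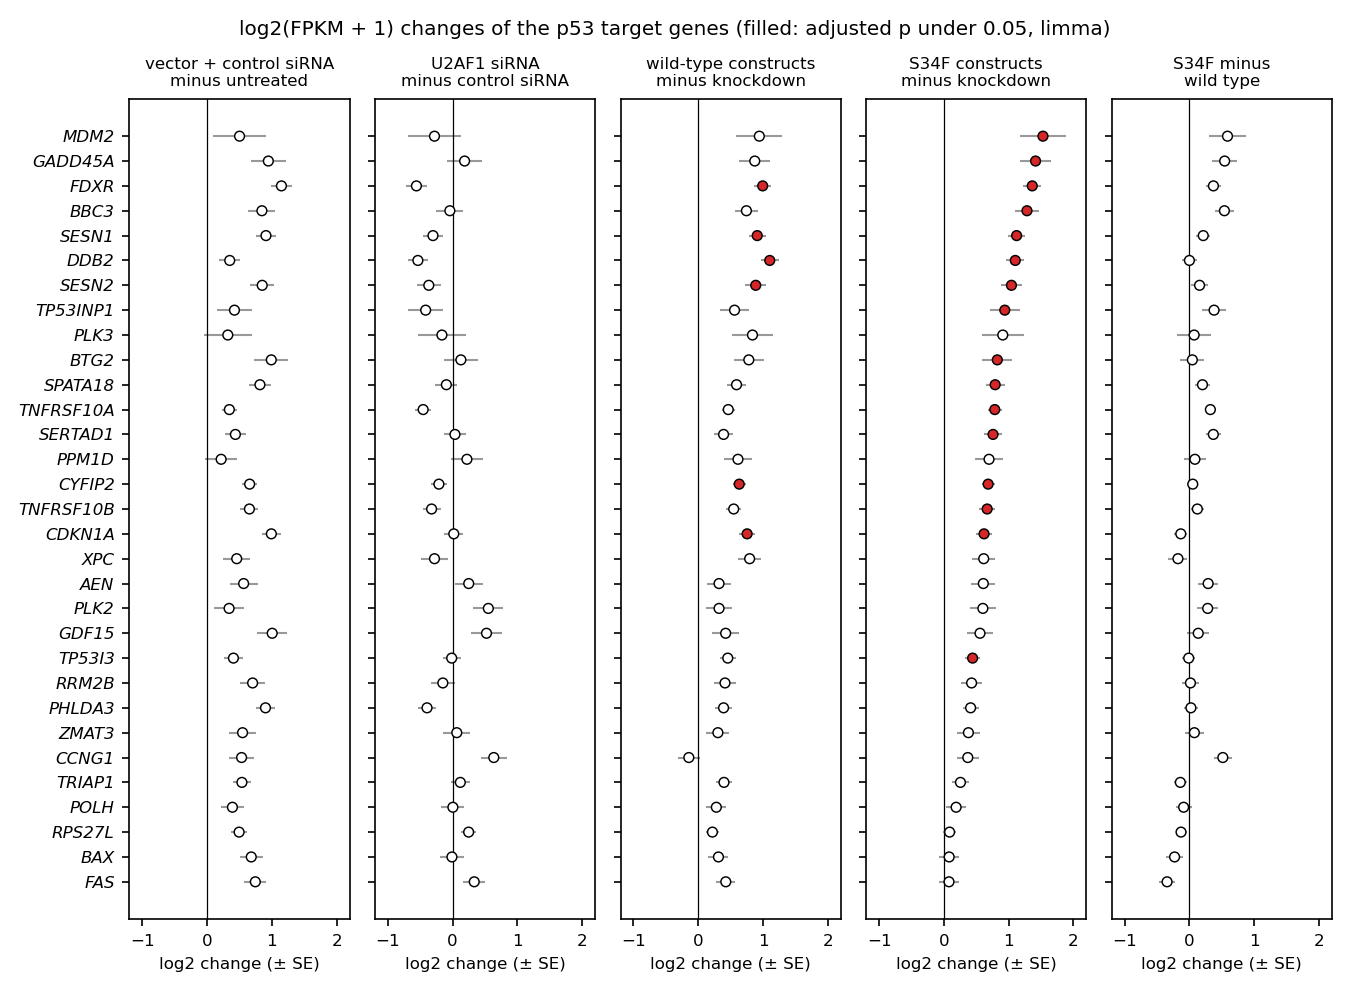
Log2 change with its standard error of each member in 5 comparisons (points; filled where limma's adjusted p was under 0.05), ordered by the S34F change against the knockdown. All points lie right of 0 for control siRNA against untreated cells and for S34F against the knockdown, 6 are filled for wild type and 16 for S34F.

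S34F was then compared with wild type directly, over both constructs, which tests the difference between the previous comparisons. No member was called by limma in either direction, where 0.583% of all genes were called higher and 1.27% lower. At an unadjusted p under 0.05 there were 6 members higher and 1 lower (7.76% and 8.16% of genes). Members lay above wild type in 22 of 31 cases (54.6% of genes), with a median of 0.08 against 0.02. MDM2 was the largest at log2 0.59 (SE 0.29, adjusted p = 0.357), followed by GADD45A (0.54, SE 0.19, adjusted p = 0.199), BBC3 (0.54, SE 0.15, adjusted p = 0.098) and CCNG1 (0.52, SE 0.14, adjusted p = 0.097). FAS was the lowest at -0.35 (SE 0.12, adjusted p = 0.192). Libraries did not overlap for 5 higher members (FDXR, BBC3, TNFRSF10A, CCNG1 and SERTAD1; 6.89% of genes) and for 1 lower, FAS (6.65% of genes), whose highest S34F library (29.1 FPKM) and lowest wild-type library (29.2 FPKM) were adjacent. With the replicate block, TNFRSF10A, CCNG1 and BBC3 were called higher (adjusted p = 0.018, 0.022 and 0.043; 3.27% of genes) and FAS lower (adjusted p = 0.038; 4.71% of genes). CDKN1A stood at -0.13 (SE 0.10, adjusted p = 0.589).

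The replicates did not tell the same story. Over the replicate 1 libraries the members' median S34F change was -0.02, with 15 above wild type, and over the replicate 2 libraries it was 0.27, with 25 above. MDM2 was higher by log2 1.20 in replicate 2 than in replicate 1 of v1 S34F and by 1.13 in v3 S34F. More than 0.5 higher in replicate 2 were 5 members with v1 S34F and 9 with v3 S34F, against 0 with wild-type v1 and 2 with v3 wild type. That is 16.1% and 29% of the members with S34F, where 16.4% and 13.5% of all genes were that much higher in replicate 2, so that the share with v1 S34F was near that of all genes. With wild type 9.79% and 9.66% of all genes were. More than 0.5 lower in replicate 2 were 1 member with v1 S34F and 3 with wild-type v1, and 0 in both v3 groups. V1 S34F replicate 2 is also the library in which 1 isoform took 33.1% of the FPKM, and the S34F replicates 2 had 63249 and 51695 FPKM of mitochondrially encoded RNA against 38293 and 38266 in replicates 1. The part of these in the split was not tested. Without both S34F replicates 2, the median S34F change was 0.00 with 17 members above wild type and 0 called.

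**Figure D4:**
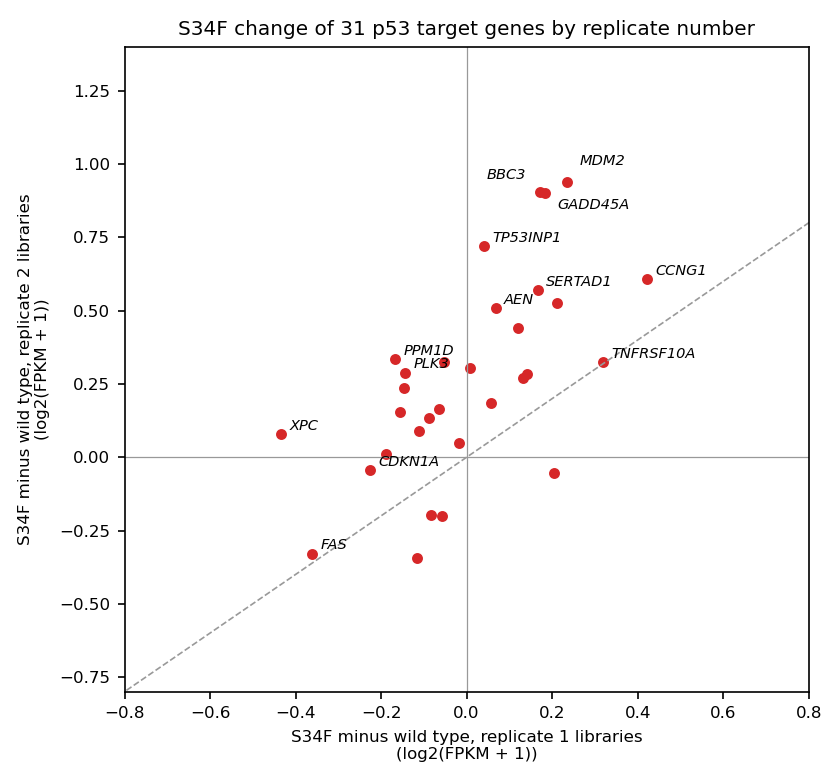
Log2 difference between S34F and wild type, averaged over v1 and v3, in replicate 1 libraries (x axis) and replicate 2 libraries (y axis) for the 31 members (points); the dashed line marks equal values. MDM2, GADD45A and BBC3 lie far above the line, TNFRSF10A and FAS close to it, and 25 points are above 0 on the y axis against 15 on the x axis.

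Taken by construct, the S34F change had a median of 0.18 in v1 and 0.04 in v3, with 0 members called in each (0.0281% and 0.00703% of genes called higher, 0.148% and 0.0141% lower). At an unadjusted p under 0.05 there were 5 higher in v1 (4.41% of genes), and 2 higher (2.92%) and 1 lower (3.53%) in v3. In v1 the leading member was GADD45A (log2 0.76, adjusted p = 0.392), and in v3 CCNG1 (0.46, adjusted p = 0.739), with MDM2 (0.46, adjusted p = 0.989) and FAS (-0.45, adjusted p = 0.655) close to it in size. The test of the difference between the constructs called no member and no gene (0%), and 0 members had an unadjusted p under 0.05. Wild-type v3 against wild-type v1 likewise called no member and no gene (0%), with 0 at an unadjusted p under 0.05. In that comparison 26 members lay above wild-type v1 (51.8% of genes), with a median of 0.14 and GADD45A the farthest out (log2 0.57, adjusted p = 1.0). Over the replicate 1 libraries 19 lay above (median 0.02) and over the replicate 2 libraries 30 (median 0.24). Without wild-type v1 replicate 2 the median was 0.01, with 16 above.

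U2AF1 acts at 3′ splice sites, so the share of each isoform in its gene's FPKM (its usage) was tested for the 91 member isoforms, of 26 members, that could be tested. BAX changed most. Isoform ENST00000293288, which in GENCODE release 29 retains intron 5, the last of the gene (chr19:48960915-48961531, GRCh38, 617 bases), encodes the form known as BAX beta. Its usage was 24.4% and 18.2% with control siRNA and 48.4% and 49.3% in the knockdown, while untreated cells had 26.4% and 30.1%. It returned to 28.2% and 28.0% with wild-type v1 and 27.1% and 25.8% with v3 wild type, and stood between 24.4% and 28.9% with S34F. The knockdown libraries were separate from all other 12. The rise with knockdown was 27.6 percentage points (SE 3.74, adjusted p = 0.042; 0.0935% of isoforms were called up), and the fall with wild type was 21.6 points (SE 3.24, adjusted p = 0.041; 0.208% were called down). Both calls were lost when any 1 of the 14 libraries was left out (adjusted p = 0.056 to 0.194 for the rise and 0.055 to 0.197 for the fall) and with an arcsine transform of usage. The level of BAX as a whole was not called in the knockdown (log2 -0.01, SE 0.18, adjusted p = 0.988).

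A BAX isoform that joins exon 5 to an acceptor 39 bases further into the last exon, ENST00000415969, was at 18.4% and 16.7% with control siRNA and under 0.01% in both knockdown libraries. It was at 15.0% and 14% with wild-type v1, but at 15.5% and 3.43% with v3 wild type, so its replicates disagreed there. The knockdown change of -17.5 points (SE 4.31, adjusted p = 0.191) was not called. Both acceptors end in CAG and are shown with 20 intron and 3 exon bases (GRCh38, from GENCODE release 29 transcripts). The first bounds the retained intron, and the later one shortens the last exon by 39 bases. Capitals mark the base before the AG and the AG itself.
BAX last exon, chr19:48961512-48961534, plus strand: actgatgtccctgtctcCAGgac
BAX later acceptor, chr19:48961551-48961573, plus strand: ttgggacgcccacgtggCAGacc
FAS exon 6, chr10:89010733-89010755, plus strand: tccaatgttccaacctaCAGgat

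DDB2 isoform ENST00000378600 stood at 6.30% and 10.8% with control siRNA, 17.6% and 25.2% in the knockdown, and between 2.76% and 6.26% in the 8 construct libraries. The knockdown libraries were again the highest of all. The fall with wild type was 17 points (SE 2.48, adjusted p = 0.036), a call lost without any 1 library other than knockdown replicate 1 (adjusted p = 0.029 to 0.162) and with the arcsine transform. The rise with knockdown, 12.9 points (SE 2.86, adjusted p = 0.152), was not called. The main isoform ENST00000256996 moved the other way, from 73.1% and 64.9% in the knockdown to between 85.9% and 88.3% with wild type (18.2 points, SE 3.71, adjusted p = 0.097). Lengths of both in the deposited tables differ from release 29, so no structure is given for them.

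With S34F no member isoform was called against wild type (0.436% of isoforms were called up and 0.244% down). An unadjusted p under 0.05 was seen for 8 of the 91, and for 5007 of all 41727 isoforms. XPC and FAS held the largest differences. XPC isoform ENST00000476581, annotated as a target of nonsense-mediated decay, skips exon 4 (chr3:14168257-14168380, GRCh38, 124 bases). Its usage was 27.1% and 35.4% with v1 S34F and 27.1% and 36.0% with v3 S34F, against 15.1% and 15.4% with wild-type v1 and 16% and 12.4% with v3 wild type. The 4 S34F libraries lay above all wild-type ones, and the knockdown, at 23.2% and 27.5%, overlapped them. In untreated cells the isoform held 10.2 and 6.65 FPKM of the gene's 42.5 and 34.4. With control siRNA it held 8.69 and 11.3 FPKM of 45.6 and 61.3. These shares lay between those with wild type and those with S34F. The difference was 16.7 points (SE 3.13, adjusted p = 0.053; 0.027 to 0.171 over the alternatives). FAS isoform ENST00000488877, also annotated for decay, skips exon 4 (chr10:89008889-89008997, 109 bases). It stood at 18.4% and 22.3% with v1 S34F and 8.67% and 25.9% with v3 S34F, against at most 6.65% in every other library (16.8 points, SE 3.36, adjusted p = 0.064; 0.020 to 0.198 over the alternatives).

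FAS isoform ENST00000357339 lacks exon 6 (chr10:89010753-89010815, 63 bases), which encodes the transmembrane segment, so that it is known as a source of soluble FAS. The acceptor of that exon is printed above. The isoform stood at 18% and 16% with wild-type v1 and 4.88% and 11.9% with v3 wild type, and at no more than 4.43% in the S34F libraries. The difference of -10.7 points (SE 2.67, adjusted p = 0.117) was not called. Without a construct the isoform stood at 0.00082% and 8.70% in untreated cells and 4.83% and 9.28% with control siRNA. In the knockdown it stood at 16.9% and 11.0%, so a low share was also seen in a library without S34F. FAS totals 10.7 to 39.6 FPKM, and as the absolute depth is unknown, so is the number of reads behind these shares. In the procedure comparison no member isoform was called (0.00719% of isoforms up, 0.0024% down). An unadjusted p under 0.05 was seen for 5 of the 91, and for 2145 of all 41727 isoforms. Among those with an unadjusted p under 0.01, the largest differences were those of RRM2B ENST00000395912 (17.8 points, SE 4.94, adjusted p = 0.766) and MDM2 ENST00000539479 (12.1 points, SE 3.62, adjusted p = 0.810). Some isoforms without such a p differed by more, such as POLH ENST00000372236, at a mean of 80.1% in untreated cells and 62.4% with control siRNA.

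**Figure D5:**
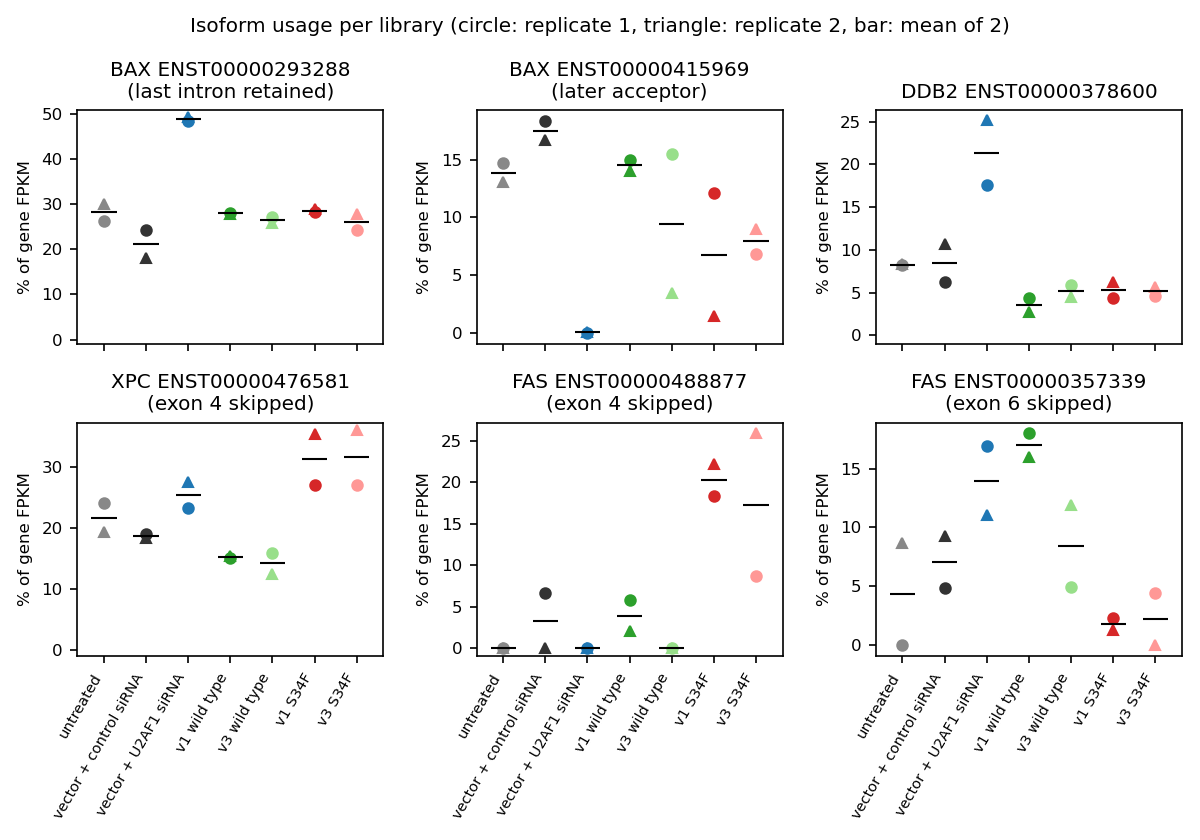
Usage of 6 member isoforms, as percent of the gene's FPKM, in each library by treatment (circles are replicates 1, triangles replicates 2 and bars the mean of both). The BAX isoform with the last intron retained stands at 48.4% and 49.3% in the knockdown and no higher than 30.1% elsewhere, and the XPC isoform without exon 4 is highest with S34F.

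Genes around the pathway were counted from named lists. Of 9 tested regulators of the pathway (MDM4, ATM, CHEK2 and others), 0 were called in any comparison. With S34F against the knockdown 2 had the largest values, ATM at log2 0.71 (adjusted p = 0.192) and CHEK1 at -0.34 (adjusted p = 0.122). Of 24 other tested p53 targets, none was called in the procedure, knockdown or wild-type comparisons, and with S34F against the knockdown 4 rose and 1 fell, where 5.08% of all genes were called higher and 3.86% lower. The risers were PMAIP1, which encodes the BH3-only protein NOXA (log2 1.22, SE 0.24, adjusted p = 0.015), EPS8L2 (0.69), EDA2R (0.60) and DRAM1 (0.65), and SCO2, a cytochrome oxidase assembly factor, fell by 0.45 (SE 0.12, adjusted p = 0.047). Their median was 0.34, against 0.67 for the 31 members.

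The 20 cell cycle genes known to be lowered through p21 and the DREAM complex all lay below untreated cells with control siRNA, at a median of -0.26 with 0 called. In the knockdown 13 lay above the control, with 0 called, and with wild-type constructs 16 lay below the knockdown, again with 0 called. With S34F against the knockdown 6 fell (3.86% of all genes), among them TOP2A, DNA topoisomerase II (log2 -0.93, SE 0.11, adjusted p = 0.0025), CCNA2, cyclin A2 (-0.81, SE 0.11, adjusted p = 0.0039), FOXM1, a G2/M transcription factor (-0.76, SE 0.13, adjusted p = 0.0076) and BUB1B, a spindle checkpoint kinase (-0.69, SE 0.13, adjusted p = 0.013). With S34F against wild type, 9 of the 20 lay above and 11 below, at a median of -0.06, and 3 were called lower (1.27% of all genes). These were TOP2A, CCNA2 and BUB1B (-0.84, -0.74 and -0.57, adjusted p = 0.0029, 0.0044 and 0.023). CDKN1A, as given above, was not called in that comparison, and a link between them was not tested.

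Targets of ATF4, the factor of the integrated stress response, were followed because several p53 targets, among them GDF15 and SESN2, are also known to answer to it. Of 12 tested, 0 were called in the procedure, knockdown and wild-type comparisons and 5 rose with S34F against the knockdown, where 5.08% of all genes were called higher. These were DDIT3, which encodes CHOP (log2 1.85, SE 0.30, adjusted p = 0.0073), the cystine transporter SLC7A11 (0.68, SE 0.14, adjusted p = 0.017), PPP1R15A, also called GADD34 (1.08, SE 0.22, adjusted p = 0.018), TRIB3 (0.88, SE 0.19, adjusted p = 0.019) and ASNS. Against wild type none was called, and DDIT3 stood at 0.66 (adjusted p = 0.215). The list moved in the same comparison as the p53 targets, and its part in their change was not tested.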

How the data were processed

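The submitters' processing notes name Trimmomatic 0.30, TopHat2 2.0.12 and build GRCh37. Which program computed FPKM, on which annotation, is not given in the sources used here. The authors deposited an FPKM and a coverage value per isoform, with a status for each estimate, per the file headers. Coverage divided by FPKM gave relative depth, and absolute depth is unknown. Gene FPKM was the sum over isoforms. Genes with a mean of at least 1 FPKM and estimates marked OK were tested with limma 3.58.1 (R 4.3.3, intensity trend) on log2(FPKM + 1), which understates changes of low genes, in 1 model with a mean for each of 7 groups. Usage was tested likewise for isoforms with mean usage of 5 to 95 percent. P-values were adjusted by Benjamini-Hochberg over all 14233 genes or 41727 isoforms, and an adjusted p under 0.05 was called. The scripts were tested on simulated data.

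Deviations of same-numbered libraries from their group means correlated at 0.160 to 0.571 (median 0.368) in all 21 pairs of groups, which is above 0.1. The main model had no replicate term, so its calls, and its lack of calls, ignore this pairing. A fit with the replicate number as a block was run as an alternative. Members and lists were chosen with earlier results of these data known. Every member was accounted for: called members were named with values (the 8 largest where more were called) and given in every library, and uncalled ones by range, with up to 4 of the largest changes. In other lists at most 4 genes per comparison were given with statistics. Member isoforms called, or otherwise the largest with an unadjusted p under 0.01, were named. CDKN1A, MDM2 and GDF15 were always named, and 1 gene of the lists is not reported here. FPKM cannot tell S34F from wild-type U2AF1 or a transgene from the endogenous gene. Strand is not stated, so overlapping genes can share reads. Promoters are from RefSeq (GRCh38.p14) and isoform structures from GENCODE release 29 (GRCh38), matched by identifier and length.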

Additional observations from a re-analysis of the deposited data

How the results depend on the processing

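Settings changed how many members, and how many of all genes, passed the threshold, and no called member changed direction in any of them. With the replicate number as a block, 2 members were called in the procedure comparison, 6 in the knockdown, 19 for wild type against the knockdown, 14 for wild type against control siRNA and 4 for S34F against wild type. The block changed no call of an isoform, and it lost no call of a member. Without both S34F replicates 2 there were 1 for the knockdown, 0 for wild type against control siRNA and 8 for S34F against the knockdown, and the v3 median S34F change was -0.063. With no filter on low values the count for wild type against control siRNA was 0. The median changed to 0.65 in the procedure comparison with a pseudocount of 0.1 and to 0.46 for wild type against the knockdown with quantile normalization. Among isoforms, the arcsine transform called 0 for the knockdown, 0 for wild type against the knockdown and 1 for S34F against wild type, where a gene mean of at least 5 FPKM called 2. Leaving out 1 library at a time gave these ranges of called members: 0 to 2 (procedure), 0 to 1 (knockdown), 0 to 7 (wild type against the knockdown), 0 to 1 (wild type against control siRNA), 2 to 19 (S34F against the knockdown) and 0 to 1 (S34F against wild type). It was 0 to 0 for S34F in v1, in v3, their difference and wild-type v3 against v1. The medians ranged from 0.56 to 0.67, -0.16 to 0.012, 0.50 to 0.58, 0.48 to 0.58, 0.61 to 0.74 and 0.06 to 0.18 in the first 6 comparisons, and from 0.11 to 0.27, -0.063 to 0.13, -0.24 to -0.037 and 0.01 to 0.19 in the last 4. Called isoforms were 0 to 0 in the procedure and knockdown comparisons, 0 to 1 for wild type against the knockdown and 0 to 1 for S34F against wild type. Absolute depth is unknown, so the counting error of low members and isoforms could not be given, and with 2 libraries a group the spread is estimated largely from all groups together.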
